A study of Mus musculus with 24 samples.

Results

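Glutamate receptors and the scaffold proteins that hold them in the postsynaptic density were followed through 36 genes, listed by symbol. They comprise 4 AMPA, 7 NMDA, 5 kainate and 1 delta receptor subunit genes, 7 metabotropic receptor genes, 2 vesicular glutamate transporter genes, 4 membrane-associated guanylate kinase (MAGUK) scaffold genes, 3 Homer genes and 3 Shank genes. The arrays carried 66 probes for them, assigned through the RefSeq transcript accession of each probe. Of these, 63 probes from 35 genes were kept, out of 35259 features tested, namely 18566 named genes and 16693 probes for which no symbol was found. The gene left out is Grm6, a metabotropic receptor known from the retina, whose 2 probes were each well above background on 1 of 24 arrays. All 35 probes that stand for the other genes were well above background on 24 of 24 arrays.

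Glutamate released from vesicles opens AMPA and kainate receptors, which carry fast excitatory current, and NMDA receptors, which pass calcium when the cell is already depolarised and so couple activity to plasticity. Metabotropic receptors act through G proteins and tune release and excitability. MAGUK, Homer and Shank proteins tether these receptors to each other and to the cytoskeleton, and the hippocampus, where the receptors were worked out in detail, depends on them for long-term potentiation.

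Hippocampal RNA from 24 male mice was hybridised to Agilent 1-colour arrays, with 1 array per sample, in 6 groups. All animals carry the strain label B6.Cg-Tg(APPswe,PSEN1dE9)85Dbo/J, and the genotype label separates animals without the transgenes from those with human APP and PSEN, a mouse model of amyloid deposition in which the mouse prion protein promoter drives both transgenes. WT_CTR (n = 4, water) and APP-PS1_CTR (n = 3, water) were collected with APP-PS1_UA (n = 4, urolithin A, a metabolite that gut bacteria make from dietary ellagitannins) at a labelled age of 8 months. WT_WASHOUT (n = 5, water) and APP-PS1_WASHOUT (n = 3, water) were collected with APP-PS1_UA-WASHOUT (n = 5, urolithin A followed by 1 month without it) at a labelled age of 9 months. Gavage ran from 2 to 7 months of age, so the age labels are 1 month above the collection ages in the study's design text. For the dose, the design text has 20 mg/kg/day, whereas 200 mg/kg/day stands in the protocol for treatment. No wild-type group received urolithin A. Nothing in the labels says how animals were housed or processed together, and p-values measure the spread between these samples alone.

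Values are log2 signals relative to the 75th percentile of their array, so a difference of 1 is a doubling, and they compare samples for 1 probe but not different genes. The file headers place the arrays on 3 slides. Slide 1 held WT_CTR, APP-PS1_CTR and APP-PS1_UA 1, slide 2 the other 3 APP-PS1_UA arrays and WT_WASHOUT, and slide 3 both transgenic washout groups. Array row also differed, with WT_CTR in row 1 and APP-PS1_CTR in row 2. The share of spots well above background ran from 63.7% to 69.9% on APP-PS1_UA-WASHOUT 2 to 5 and from 68.5% to 76.9% on all other arrays, and correlations between arrays of a group ran from 0.977 to 0.991. Prnp, whose promoter the transgenes use, was 6.67 to 7.06 on the 15 transgenic arrays and 5.25 to 5.61 on the 9 others, so no array went against its genotype label. All 8 pan-neuronal markers were measured, with a group mean score between 4.01 and 4.26, and 10 of 10 markers of hippocampal subfields had a kept probe.

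Receptor and scaffold genes differed between groups in the comparisons of transgenic washout groups on slide 3 with WT_WASHOUT on slide 2, and in no other comparison of 2 groups. At the end of treatment 0 of 35 genes differed between APP-PS1_CTR and WT_CTR, where 0.156% of all features tested did (limma, Benjamini-Hochberg adjusted p under 0.05), and 1 had an unadjusted p under 0.05. With urolithin A, 0 of 35 differed at the end of treatment and 0 of 35 after washout, beside 0.0% and 0.0624% of all features, with 3 and 2 at an unadjusted p under 0.05. After washout 7 of 35 genes differed between APP-PS1_WASHOUT and WT_WASHOUT, which is 20.0% of them and below the 27.6% of all features that did. Of these 4 were higher and 3 lower, where 20.0% of all features were higher and 7.67% lower. The groups did not overlap for 7 of the 35 genes, the same 7 that were called, beside 31.0% of all features. Between APP-PS1_UA-WASHOUT and WT_WASHOUT 9 differed, 25.7% of the genes beside 36% of all features. Of these 2 were higher and 7 lower, beside 23.6% and 12.4%, and the groups did not overlap for 5 of the 35 genes (Grin2d, Grm3, Grm5, Dlg1 and Homer1), beside 24.7% of all features.

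Neither share called after washout exceeded its background. Slide 3 held all the transgenic arrays of these comparisons while slide 2 held all the wild-type ones. Genotype and slide cannot be told apart there. In whole-tissue RNA fewer cells of a type and less RNA per cell cannot be told apart either. The largest called change in both comparisons was that of the NMDA receptor subunit gene Grin2d.

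**Figure D1:**
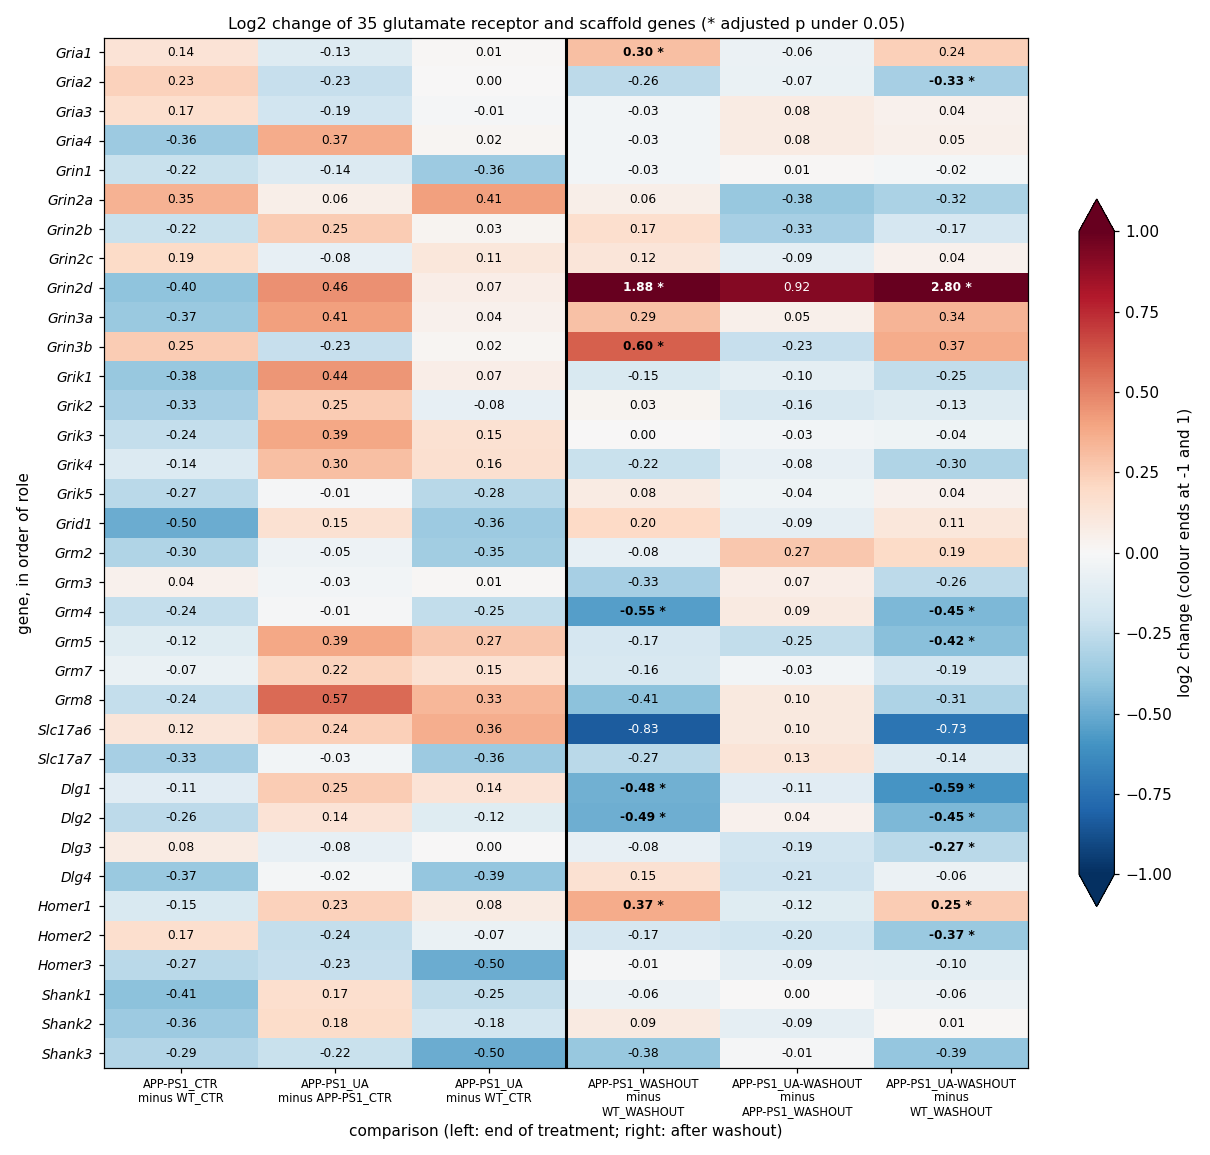
Log2 change of each of 35 genes (rows, in order of role) in 6 comparisons (columns), with an asterisk where the adjusted p is under 0.05. Grin2d reaches 1.88 and 2.80 in the comparisons of slide 3 with slide 2, while no gene carries an asterisk in the columns at the end of treatment.

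In the comparison of APP-PS1_WASHOUT with WT_WASHOUT the 5th to 95th percentile of the gene set ran from -0.50 to 0.44, while that of all features ran from -0.57 to 1.98. For APP-PS1_UA-WASHOUT against WT_WASHOUT the corresponding ranges were -0.49 to 0.35 and -0.54 to 2.21. The median of the 35 genes was -0.03 in the first comparison and -0.13 in the second, beside 0.08 and 0.05 over all features. The upper tail of all features was thus longer than that of the receptor and scaffold genes in both comparisons.

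**Figure D2:**
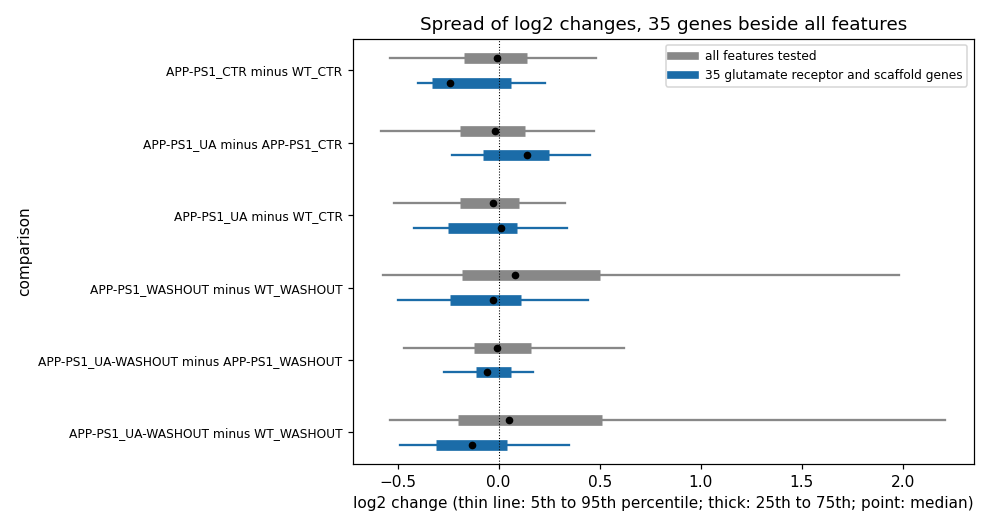
Spread of log2 changes for the 35 genes and for all features tested in 6 comparisons, with the median as a point, the 25th to 75th percentile as a thick line and the 5th to 95th percentile as a thin line. In the comparisons after washout with wild type the line of all features reaches 1.98 and 2.21, and that of the 35 genes 0.44 and 0.35.

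Of the 7 NMDA receptor subunit genes, 2 were higher in APP-PS1_WASHOUT than in WT_WASHOUT, 0 were lower and 5 did not pass, beside 20.0% of all features higher and 7.67% lower. Grin2d encodes GluN2D, a subunit that gives slow, long-lasting receptor currents and is enriched in interneurons of the adult hippocampus. In the washout groups Grin2d measured 0.59, 0.19, -0.06, -0.19 and -0.32 on the WT_WASHOUT arrays, 1.43, 2.46 and 1.88 on the APP-PS1_WASHOUT arrays and 3.11, 2.52, 2.69, 2.79 and 3.1 on the APP-PS1_UA-WASHOUT arrays. Every array of both transgenic washout groups lay above every WT_WASHOUT array. At the end of treatment its arrays gave 0.43, 0.24, -0.4 and 0.57 in WT_CTR, -0.11, -0.01 and -0.44 in APP-PS1_CTR and 0.24, 0.33, 0.12 and 0.41 in APP-PS1_UA. These 3 groups overlapped, except that all 4 APP-PS1_UA arrays lay above all 3 APP-PS1_CTR arrays. Grin2d was 1.92 ± 0.52 (SD, n = 3) in APP-PS1_WASHOUT and 0.04 ± 0.36 (SD, n = 5) in WT_WASHOUT, a 3.68-fold rise (log2 change 1.88, SE 0.24, adjusted p = 6e-06, 95% confidence interval 1.39 to 2.38). With urolithin A it was 2.84 ± 0.26 (SD, n = 5), 6.97-fold above WT_WASHOUT (log2 change 2.80, SE 0.21, adjusted p = 2.25e-09). The array carried 1 kept probe for the gene.

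Set by slide, the 8 transgenic arrays of slide 3 gave Grin2d 1.43 to 3.11, the 7 transgenic arrays of slides 1 and 2 gave -0.44 to 0.41, and the 9 wild-type arrays gave -0.40 to 0.59. The transgenic arrays of slides 1 and 2 overlapped the wild-type arrays. The transgene effect differed between the stages by 2.28 (SE 0.34, adjusted p = 0.000152), being -0.40 at the end of treatment and 1.88 after washout. With array row as a block the difference was 1.62 (adjusted p = 0.0957). Grin2d and Homer1 were the 2 of 35 genes whose transgenic arrays did not overlap between slide 3 and the other slides, where 18.9% of all features did not. Age, washout and slide moved together across the transgenic arrays and cannot be told apart.

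Because Grin2d moved most, its promoter window is shown, from 250 bases before to 50 after the annotated start in RefSeq (GRCm38.p6, chr7:45866632-45866931, minus strand). It was searched on both strands for the GC box GGGCGG, found in 35.7% of the 32851 windows of the table, and for the cyclic AMP response element core TGACG, found in 20.8%. Neither is in this window, so no letters are in capitals. The window holds 56.0% G and C bases, beside a median of 52.7% over all windows.
Grin2d promoter window: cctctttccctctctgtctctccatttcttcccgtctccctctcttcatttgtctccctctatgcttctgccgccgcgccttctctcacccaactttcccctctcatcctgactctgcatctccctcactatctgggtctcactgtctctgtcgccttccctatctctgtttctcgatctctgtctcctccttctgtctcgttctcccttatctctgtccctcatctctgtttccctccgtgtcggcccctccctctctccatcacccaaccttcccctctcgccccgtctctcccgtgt
The strand shown runs 5′ to 3′ in the direction of transcription.

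Grin3b encodes GluN3B, a glycine-binding subunit. Grin3b read -5.01, -4.54, -4.37, -4.65 and -4.31 in WT_WASHOUT, -3.82, -4.11 and -4.0 in APP-PS1_WASHOUT and -4.3, -4.44, -4.52, -4.2 and -3.57 in APP-PS1_UA-WASHOUT. All 3 APP-PS1_WASHOUT arrays lay above all 5 WT_WASHOUT arrays, while the treated arrays overlapped them. On slides 1 and 2 the earlier groups gave -5.03, -4.84, -4.43 and -4.77 in WT_CTR, -4.44, -4.63 and -4.49 in APP-PS1_CTR and -4.49, -5.11, -4.76 and -4.65 in APP-PS1_UA. The groups at that stage overlapped. The lowest spot well above background lay between -5.65 and -5.01 on APP-PS1_UA-WASHOUT 2 to 5, and between -7.17 and -6.28 on all other arrays. Its part in the Grin3b values was not tested. The rise in APP-PS1_WASHOUT was 1.51-fold (log2 change 0.60, SE 0.19, adjusted p = 0.0266), and in APP-PS1_UA-WASHOUT the change was 0.37 (adjusted p = 0.0953). The call was lost without WT_WASHOUT 1 (adjusted p = 0.062), without APP-PS1_WASHOUT 1 (0.111) and without APP-PS1_WASHOUT 3 (0.0634), and in 4 of 12 processing alternatives, with the highest adjusted p in the authors' standardized scores (0.539).

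The other NMDA subunit genes did not pass in any comparison, where between 0.0% and 36% of all features did. Grin1, which encodes the obligatory GluN1 subunit, was -0.03 and -0.02 in APP-PS1_WASHOUT and APP-PS1_UA-WASHOUT against WT_WASHOUT. Grin2a and Grin2b, which encode the main GluN2 subunits of hippocampal pyramidal cells, were 0.06 and 0.17 in APP-PS1_WASHOUT, and -0.32 and -0.17 in APP-PS1_UA-WASHOUT. Grin2c, best known from cerebellar granule cells and astrocytes, was 0.12 and 0.04. Grin3a, which encodes GluN3A, a subunit of immature synapses, was 0.29 in APP-PS1_WASHOUT (95% confidence interval -0.68 to 1.27) and ranged from -0.58 to 1.91 within WT_WASHOUT alone.

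Among the 4 AMPA receptor subunit genes 1 was higher in APP-PS1_WASHOUT than in WT_WASHOUT, 0 were lower and 3 did not pass, beside the same 20.0% and 7.67% of all features. Gria1 encodes GluA1, the subunit whose insertion accompanies potentiation. In the washout groups Gria1 measured 5.71, 5.63, 5.77, 5.45 and 5.52 on the WT_WASHOUT arrays, 5.91, 6.06 and 5.77 on the APP-PS1_WASHOUT arrays and 5.83, 5.78, 5.68, 5.99 and 5.99 on the APP-PS1_UA-WASHOUT arrays. The 3 APP-PS1_WASHOUT arrays touched the highest WT_WASHOUT array, at 5.77 to 2 decimals, and otherwise lay above it. The earlier stage gave 5.77, 5.52, 5.65 and 5.77 in WT_CTR, 5.98, 5.79 and 5.69 in APP-PS1_CTR and 5.73, 5.52, 5.61 and 5.9 in APP-PS1_UA. Those groups overlapped. The rise was 1.23-fold (log2 change 0.30, SE 0.11, adjusted p = 0.0466). The call was lost without WT_WASHOUT 2 (adjusted p = 0.0679), WT_WASHOUT 4 (0.105), WT_WASHOUT 5 (0.0886), APP-PS1_WASHOUT 1 (0.102) or APP-PS1_WASHOUT 2 (0.222), and in 5 of 12 processing alternatives, with the highest adjusted p after quantile normalization (change 0.01, adjusted p = 0.948). In APP-PS1_UA-WASHOUT it was 0.24 above WT_WASHOUT (adjusted p = 0.054), which did not pass.

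Gria2 encodes GluA2, the subunit that makes AMPA receptors impermeable to calcium. Gria2 read 5.22, 5.41, 5.36, 5.28 and 5.42 in WT_WASHOUT, 4.94, 5.31 and 4.99 in APP-PS1_WASHOUT and 4.97, 4.98, 4.84, 5.01 and 5.24 in APP-PS1_UA-WASHOUT. Of the treated arrays 4 lay below every WT_WASHOUT array and 1 inside their range, and 2 of 3 APP-PS1_WASHOUT arrays lay below it. Before washout the arrays read 5.14, 5.46, 5.33 and 5.33 in WT_CTR, 5.66, 5.58 and 5.38 in APP-PS1_CTR and 5.41, 5.14, 5.21 and 5.5 in APP-PS1_UA. All 3 groups overlapped at the end of treatment. Gria2 was 1.25-fold lower in APP-PS1_UA-WASHOUT than in WT_WASHOUT (log2 change -0.33, SE 0.10, adjusted p = 0.0124), and -0.26 in APP-PS1_WASHOUT (adjusted p = 0.1). In the authors' standardized scores the first of these was 0.02 (adjusted p = 0.51), a change of direction. Gria3 and Gria4, which encode the remaining AMPA subunits, were -0.03 and -0.03 in APP-PS1_WASHOUT and 0.04 and 0.05 in APP-PS1_UA-WASHOUT. Gria3 had the smallest spread between animals of any of the 35 probes, with a pooled within-group SD of 0.09, and the narrowest confidence interval, 0.17 on either side in APP-PS1_WASHOUT against WT_WASHOUT.

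Of the 5 kainate receptor subunit genes and Grid1, 0 passed in any of the 9 comparisons, by limma's adjusted p. The share of all features called in a comparison ran from 0.0% (APP-PS1_UA against APP-PS1_CTR) to 36% (APP-PS1_UA-WASHOUT against WT_WASHOUT). Grik4 alone of these genes reached an unadjusted p under 0.05, in 1 comparison. Grik1, Grik2 and Grik3 encode the low-affinity subunits GluK1 to GluK3, and Grik4 and Grik5 the high-affinity partners. Their changes in APP-PS1_WASHOUT against WT_WASHOUT ran from -0.22 for Grik4 to 0.08 for Grik5. In APP-PS1_UA-WASHOUT against WT_WASHOUT they ran from -0.30 for Grik4 (adjusted p = 0.0932) to 0.04 for Grik5. Grid1, which encodes the delta subunit GluD1, a synapse organiser rather than a glutamate-gated channel, was 0.20 and 0.11 in the same comparisons.

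Of the 6 metabotropic receptor genes measured, 1 fell in APP-PS1_WASHOUT and 2 fell in APP-PS1_UA-WASHOUT against WT_WASHOUT, and 0 rose, where 7.67% and 12.4% of all features fell and 20.0% and 23.6% rose. Grm4 encodes the presynaptic group III receptor mGlu4, which restrains release. In the washout groups Grm4 measured -0.9, -1.7, -1.47, -1.11 and -1.56 on the WT_WASHOUT arrays, -1.75, -1.93 and -1.99 on the APP-PS1_WASHOUT arrays and -1.64, -1.74, -1.69, -2.0 and -1.93 on the APP-PS1_UA-WASHOUT arrays. Each APP-PS1_WASHOUT array lay below each WT_WASHOUT array, and the treated arrays overlapped WT_WASHOUT at its low end. The groups at the end of treatment read -1.22, -1.22, -1.43 and -0.83 in WT_CTR, -1.52, -1.59 and -1.14 in APP-PS1_CTR and -1.47, -1.16, -1.35 and -1.71 in APP-PS1_UA. The ranges at that stage overlapped. Grm4 was 1.46-fold lower in APP-PS1_WASHOUT (log2 change -0.55, SE 0.17, adjusted p = 0.0232) and 1.37-fold lower in APP-PS1_UA-WASHOUT (log2 change -0.45, SE 0.15, adjusted p = 0.0229). The first call was lost without WT_WASHOUT 1 (adjusted p = 0.0542), WT_WASHOUT 4 (0.0558), APP-PS1_WASHOUT 2 (0.0768) or APP-PS1_WASHOUT 3 (0.0889). The second was lost without WT_WASHOUT 1 (0.0712), WT_WASHOUT 4 (0.0643), APP-PS1_UA-WASHOUT 4 (0.0597) or APP-PS1_UA-WASHOUT 5 (0.0505). Of 12 processing alternatives each was lost in 1, the first with normexp background (0.0537) and the second with array weights (0.0787).

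Grm5 encodes mGlu5, the group I receptor coupled to Homer proteins and studied as a partner of amyloid oligomers. Grm5 read 4.26, 4.33, 4.3, 4.29 and 4.23 in WT_WASHOUT, 4.13, 3.97 and 4.24 in APP-PS1_WASHOUT and 3.76, 4.22, 4.0, 3.49 and 3.85 in APP-PS1_UA-WASHOUT. The WT_WASHOUT arrays lay close together and all 5 treated arrays lay below them. Earlier, the gene measured 3.79, 4.36, 4.26 and 4.09 in WT_CTR, 4.17, 3.86 and 3.98 in APP-PS1_CTR and 4.29, 4.27, 4.55 and 4.46 in APP-PS1_UA. All 4 APP-PS1_UA arrays lay above all 3 APP-PS1_CTR arrays. Grm5 was 1.33-fold lower in APP-PS1_UA-WASHOUT than in WT_WASHOUT (log2 change -0.42, SE 0.12, adjusted p = 0.0103) and -0.17 in APP-PS1_WASHOUT, which did not pass. The call was lost in 1 of 12 processing alternatives, the authors' standardized scores (adjusted p = 0.452). Its 2 other probes gave -0.33 and -0.18 in the first comparison. Grm2, Grm3, Grm7 and Grm8, which encode group II and group III receptors, ran from -0.41 for Grm8 to -0.08 for Grm2 in APP-PS1_WASHOUT, and from -0.31 for Grm8 to 0.19 for Grm2 in APP-PS1_UA-WASHOUT. In both comparisons 0 of these 4 passed.

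Neither vesicular glutamate transporter gene passed in any of the 9 comparisons, where between 0.0% and 36% of all features did. Slc17a6 encodes VGLUT2, which in forebrain marks thalamic and other subcortical inputs. It measured 0.36, -0.43, 0.18, 0.50 and 0.40 in WT_WASHOUT, -1.25, -1.13 and 0.50 in APP-PS1_WASHOUT, and -0.71, -0.45, -0.49, -0.73 and -0.25 in APP-PS1_UA-WASHOUT. The transgenic groups overlapped WT_WASHOUT, and 1 APP-PS1_WASHOUT array was as high as the highest of WT_WASHOUT. Slc17a6 had the lowest change of the 35 genes in both comparisons, and neither was called, -0.83 in APP-PS1_WASHOUT (95% confidence interval -1.81 to 0.15, adjusted p = 0.205) and -0.73 in APP-PS1_UA-WASHOUT (-1.57 to 0.12, adjusted p = 0.173). With Grin3a it had the widest spread between animals, a pooled within-group SD of 0.67. The score over 6 markers of thalamus and habenula, where Slc17a6 is abundant, ran from -0.02 to 1.16 in APP-PS1_WASHOUT and from -0.14 to 0.24 in WT_WASHOUT, and its part in these values was not tested. Slc17a7, which encodes VGLUT1 of hippocampal and cortical pyramidal cells, was -0.27 and -0.14.

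Of the 4 MAGUK scaffold genes, 0 rose in either comparison with WT_WASHOUT, while 2 fell in APP-PS1_WASHOUT and 3 in APP-PS1_UA-WASHOUT. Over all features 20.0% and 23.6% rose and 7.67% and 12.4% fell in these comparisons. Dlg1 encodes SAP97, which accompanies AMPA receptors on their way to the synapse. Dlg1 read 0.47, 0.44, 0.47, 0.67 and 0.08 in WT_WASHOUT, 0.06, -0.08 and -0.14 in APP-PS1_WASHOUT and -0.04, 0.07, -0.2, -0.52 and -0.12 in APP-PS1_UA-WASHOUT. All 8 transgenic arrays lay below all 5 wild-type arrays. Dlg1 at the end of treatment was -0.15, 0.27, 0.2 and 0.43 in WT_CTR, 0.09, -0.05 and 0.2 in APP-PS1_CTR and 0.15, 0.41, 0.48 and 0.29 in APP-PS1_UA. These groups overlapped. Dlg1 was 1.40-fold lower in APP-PS1_WASHOUT (log2 change -0.48, SE 0.14, adjusted p = 0.0157) and 1.51-fold lower in APP-PS1_UA-WASHOUT (log2 change -0.59, SE 0.12, adjusted p = 0.000817). Its other probe gave -0.53 and -0.63. The first call was lost without APP-PS1_WASHOUT 2 (adjusted p = 0.055) or APP-PS1_WASHOUT 3 (0.0677), and the second held without any 1 array.

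Dlg2 encodes PSD-93, a relative of PSD-95. Dlg2 read 2.21, 2.1, 1.7, 2.26 and 1.82 in WT_WASHOUT, 1.7, 1.43 and 1.48 in APP-PS1_WASHOUT and 1.75, 1.76, 1.67, 1.23 and 1.45 in APP-PS1_UA-WASHOUT. In APP-PS1_WASHOUT the 3 arrays met the lowest wild-type array at 1.70 and otherwise lay below it, while 2 of 5 treated arrays lay inside the wild-type range. Dlg2 at the end of treatment was 2.1, 2.33, 1.91 and 2.18 in WT_CTR, 1.89, 1.77 and 1.96 in APP-PS1_CTR and 1.75, 2.14, 1.97 and 2.18 in APP-PS1_UA. Of the 3 APP-PS1_CTR arrays 2 lay below every WT_CTR array, and APP-PS1_UA overlapped both groups. Dlg2 was 1.40-fold lower in APP-PS1_WASHOUT (log2 change -0.49, SE 0.15, adjusted p = 0.0176) and 1.36-fold lower in APP-PS1_UA-WASHOUT (log2 change -0.45, SE 0.13, adjusted p = 0.00888). Its 4 probes gave -0.48, -0.15, -0.13 and 0.16 in the first comparison, and their mean -0.15 did not pass (adjusted p = 0.47). The first call was also lost without APP-PS1_WASHOUT 2 (adjusted p = 0.0832) or APP-PS1_WASHOUT 3 (0.0649).

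Dlg3 encodes SAP102, which carries NMDA receptors early in development. Dlg3 read 4.42, 4.46, 4.64, 4.5 and 4.65 in WT_WASHOUT, 4.55, 4.58 and 4.25 in APP-PS1_WASHOUT and 4.04, 4.32, 4.22, 4.43 and 4.34 in APP-PS1_UA-WASHOUT. Of the treated arrays 4 lay below every wild-type array, and 1 just inside their range. Dlg3 at the end of treatment was 4.49, 4.55, 4.6 and 4.62 in WT_CTR, 4.75, 4.58 and 4.59 in APP-PS1_CTR and 4.7, 4.33, 4.51 and 4.7 in APP-PS1_UA. These groups overlapped. Dlg3 was 1.20-fold lower in APP-PS1_UA-WASHOUT (log2 change -0.27, SE 0.09, adjusted p = 0.0282), and -0.08 in APP-PS1_WASHOUT. The call was lost without WT_WASHOUT 3 (adjusted p = 0.0689), WT_WASHOUT 5 (0.0696), APP-PS1_UA-WASHOUT 1 (0.0898) or APP-PS1_UA-WASHOUT 3 (0.0566), and in the authors' standardized scores the change was 0.02 (adjusted p = 0.636). Dlg4, which encodes PSD-95, the main scaffold of the mature synapse, was 0.15 in APP-PS1_WASHOUT and -0.06 in APP-PS1_UA-WASHOUT, and passed in neither.

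The 3 Homer genes gave 1 rise in APP-PS1_WASHOUT, and 1 rise and 1 fall in APP-PS1_UA-WASHOUT, against WT_WASHOUT, beside 20.0% of all features higher and 7.67% lower in the first comparison and 23.6% and 12.4% in the second. Homer1 links metabotropic receptors to Shank, and the gene also makes short, activity-induced forms that break those links. By the probe with the highest signal, for NM_147176, in the washout groups it measured 1.6, 1.61, 1.53, 1.65 and 1.6 on the WT_WASHOUT arrays, 1.92, 2.02 and 1.96 on the APP-PS1_WASHOUT arrays and 1.82, 1.98, 1.89, 1.77 and 1.77 on the APP-PS1_UA-WASHOUT arrays. All 8 transgenic arrays lay above all 5 wild-type arrays. At the earlier stage this gene read 1.27, 1.68, 1.58 and 1.42 in WT_CTR, 1.38, 1.26 and 1.37 in APP-PS1_CTR and 1.43, 1.61, 1.63 and 1.59 in APP-PS1_UA. At that stage the APP-PS1_UA arrays lay above those of APP-PS1_CTR. Homer1 by this probe was 1.29-fold higher in APP-PS1_WASHOUT (log2 change 0.37, SE 0.09, adjusted p = 0.00302) and 1.19-fold higher in APP-PS1_UA-WASHOUT (log2 change 0.25, SE 0.08, adjusted p = 0.0133), though under median centring these were 0.14 (adjusted p = 0.334) and -0.06 (adjusted p = 0.608), and with normexp background the second was 0.22 (adjusted p = 0.0531). The 8 slide 3 arrays ran from 1.77 to 2.02, the 7 transgenic arrays of slides 1 and 2 from 1.26 to 1.63, and the 9 wild-type arrays from 1.27 to 1.68. The transgene effect differed between stages by 0.52 (SE 0.13, adjusted p = 0.00781), and by 0.43 (adjusted p = 0.292) with array row as a block.

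The other 2 Homer1 probes had changes below 0 in both comparisons. The probe for NM_152134 read 0.58, 0.88, 0.87, 0.96 and 1.1 in WT_WASHOUT, -0.09, 0.62 and 0.22 in APP-PS1_WASHOUT and 0.18, 0.1, 0.13, -0.05 and 0.16 in APP-PS1_UA-WASHOUT. Its change was -0.63 (SE 0.14, adjusted p = 0.00288 over 43973 probes) and -0.77 (SE 0.13, adjusted p = 6.13e-05). The probe for NM_011982 read -0.04, -0.25, -0.08, -0.08 and -0.32, then -0.42, -0.6 and -0.54, then -0.85, -0.59, -0.67, -1.16 and -0.56 in the same groups. It was -0.37 (adjusted p = 0.11) and -0.61 (adjusted p = 0.00208). All 8 transgenic arrays lay below all 5 wild-type arrays by the NM_011982 probe, and all but APP-PS1_WASHOUT 2 did by the NM_152134 probe. Among the 18 genes with more than 1 kept probe, the span between probes was largest for Homer1 in both comparisons, 1.0 and 1.02. Probes of both signs were not particular to Homer1, with 9 of the 18 genes in APP-PS1_WASHOUT and 6 in APP-PS1_UA-WASHOUT. With the mean of its probes Homer1 was -0.21 in APP-PS1_WASHOUT (adjusted p = 0.169) and -0.38 in APP-PS1_UA-WASHOUT (adjusted p = 0.00334), so the gene has no single direction here. The probe annotation gives an accession but not which Homer1 form the probe reads.

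**Figure D3:**
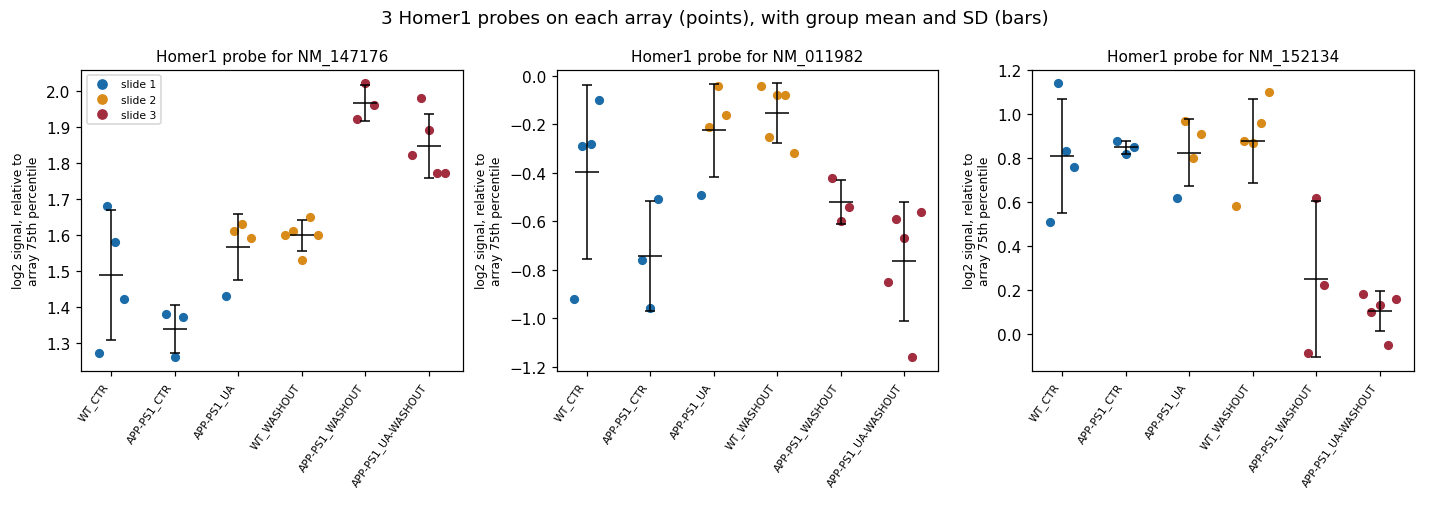
Log2 signal of the 3 Homer1 probes on each array, relative to the 75th percentile of the array, by group and coloured by slide, with the group mean and SD. On slide 3 the NM_147176 probe lies between 1.77 and 2.02, above every array of slides 1 and 2, while the NM_152134 probe has group means of 0.25 and 0.10 there beside 0.88 in WT_WASHOUT.

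Homer1 has 2 promoter windows in RefSeq (GRCm38.p6, plus strand), at chr13:93303507-93303806 and chr13:93307784-93308083, and both are shown because its probes disagreed. Capitals mark the core TGACG on either strand. The GC box GGGCGG is in neither.
Homer1 promoter window 1: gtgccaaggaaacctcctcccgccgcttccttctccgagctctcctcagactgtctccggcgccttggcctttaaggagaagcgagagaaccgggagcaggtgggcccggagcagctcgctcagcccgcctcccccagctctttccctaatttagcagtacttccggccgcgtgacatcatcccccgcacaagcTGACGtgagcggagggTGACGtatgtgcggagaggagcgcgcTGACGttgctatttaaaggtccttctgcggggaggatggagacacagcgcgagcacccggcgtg
Homer1 promoter window 2: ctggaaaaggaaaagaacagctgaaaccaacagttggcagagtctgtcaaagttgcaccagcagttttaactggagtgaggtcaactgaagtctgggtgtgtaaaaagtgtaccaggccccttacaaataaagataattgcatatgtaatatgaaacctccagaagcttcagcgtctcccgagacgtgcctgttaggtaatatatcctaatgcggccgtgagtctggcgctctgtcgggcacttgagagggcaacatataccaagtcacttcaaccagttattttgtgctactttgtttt
The first window holds 63.0% G and C and 3 copies of TGACG. Of all windows 340 (1.03%) hold 3 or more. The second holds 0 copies and 44.7% G and C. Of the 36 genes 25 have a window in the table, with 39 windows in all. TGACG is in 7 of the 39 (17.9%, beside 20.8% of all windows), the full element TGACGTCA, which contains it, in 0 of the 39 (1.79% of all windows), and GGGCGG in 19 (48.7%, beside 35.7%). These matches describe the letters of the windows, and no measurement here bears on binding.

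Homer2, a long-form adaptor of the same family, fell in APP-PS1_UA-WASHOUT. Homer2 read 0.49, 0.82, 0.9, 0.81 and 0.86 in WT_WASHOUT, 0.78, 0.63 and 0.41 in APP-PS1_WASHOUT and 0.37, 0.34, 0.23, 0.5 and 0.6 in APP-PS1_UA-WASHOUT. All 5 treated arrays lay below 4 of the wild-type arrays, with 2 of 5 above the lowest wild-type array, WT_WASHOUT 1, which stood apart from the other 4. Homer2 at the end of treatment was 0.59, 0.8, 0.71 and 1.18 in WT_CTR, 0.96, 1.12 and 0.89 in APP-PS1_CTR and 0.77, 0.63, 0.75 and 0.85 in APP-PS1_UA. All 3 APP-PS1_CTR arrays lay above all 4 APP-PS1_UA arrays. Homer2 was 1.29-fold lower in APP-PS1_UA-WASHOUT than in WT_WASHOUT (log2 change -0.37, SE 0.11, adjusted p = 0.0123) and -0.17 in APP-PS1_WASHOUT, which did not pass. Homer3, known best from cerebellar Purkinje cells, was -0.01 and -0.10.

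The Shank genes encode the large scaffolds that join the receptor complexes to actin. Of the 3 genes 0 passed in any comparison, where between 0.0% and 36% of all features did. Against WT_WASHOUT, Shank1 was -0.06 in both transgenic washout groups, Shank2 0.09 and 0.01, and Shank3 -0.38 and -0.39 (adjusted p = 0.102 for the latter). At the end of treatment Shank1 was -0.41 in APP-PS1_CTR against WT_CTR (SE 0.19, adjusted p = 0.759), with WT_CTR arrays at -0.16, -0.98, -0.93 and -0.57 and APP-PS1_CTR arrays at -1.18, -1.13 and -0.90. WT_CTR 1 was the highest of its group, and the groups overlapped. Shank1 had the smallest unadjusted p of the 35 genes in that comparison, 0.0403.

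**Figure D4:**
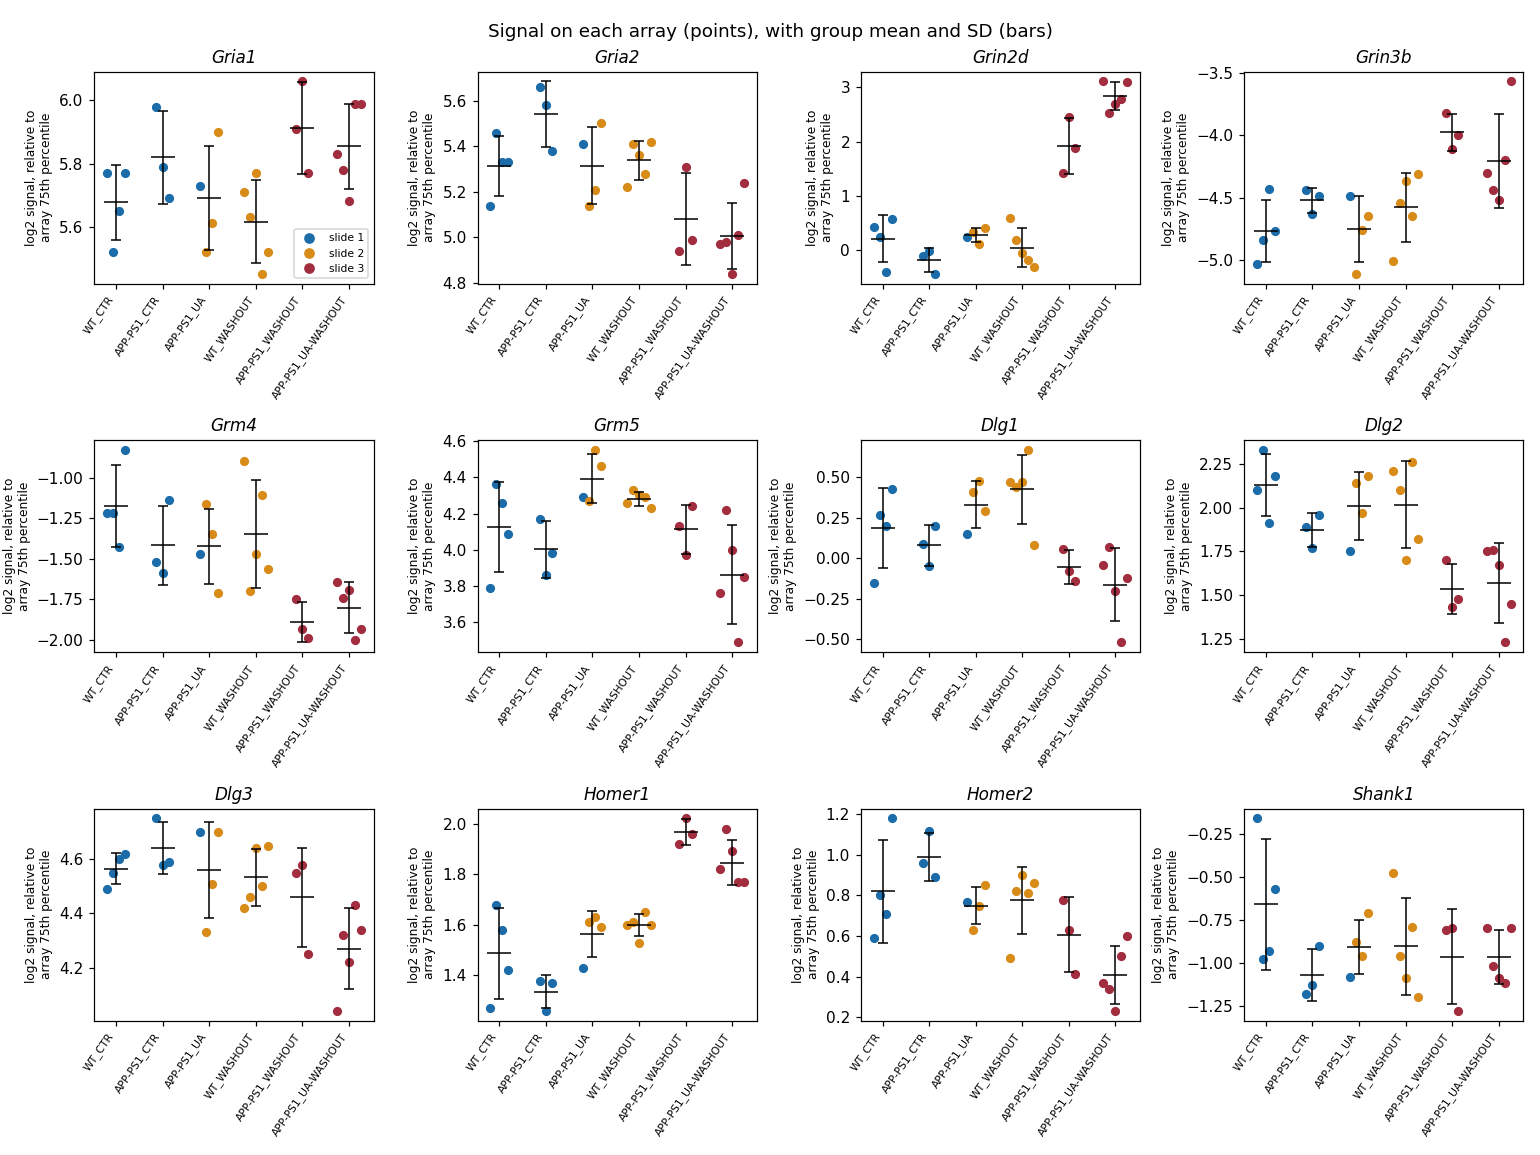
Log2 signal on each array for the 11 genes called in at least 1 comparison and for Shank1, relative to the 75th percentile of the array, by group and coloured by slide, with the group mean and SD. Slide 3 arrays of Grin2d lie between 1.43 and 3.11, apart from all others, and those of Dlg1 lie at or below 0.07.

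The comparison of APP-PS1_CTR with WT_CTR tested the transgenes at the earlier stage, and it lay within slide 1. Here 25 of 35 genes had a change below 0, with a median of -0.24, beside 51.2% of all features and a median of -0.01. Of the genes, 1 had an unadjusted p under 0.05 (Shank1), as had 6.49% of all features. The changes ran from -0.50 for Grid1 (95% confidence interval -1.11 to 0.10, adjusted p = 0.797) to 0.35 for Grin2a (-0.17 to 0.87, adjusted p = 0.826). All 5 kainate and all 3 Shank genes were below 0, and 3 of the 4 AMPA genes were above. The groups did not overlap for 3 genes (Gria3, Gria4 and Grin2b), beside 8.91% of all features.

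The groups filled different array rows. With array row as a block the median of the 35 genes was 0.01 and 16 were below 0, so the lower median was not seen with row in the model. That row term came from other groups alone, because WT_CTR lay wholly in row 1 and APP-PS1_CTR wholly in row 2. Row and genotype cannot be told apart between these groups. Within slide 1 alone the median was -0.24, which was fixed in advance, because slide 1 held every array of both groups. Leaving out any 1 array kept it between -0.24 and -0.16. The 95% confidence intervals reached a median of 0.40 on either side of the change, from 0.18 for Gria3 to 1.02 for Slc17a6, which limits the size of difference these arrays could show.

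Urolithin A at the end of treatment was examined by comparing APP-PS1_UA with APP-PS1_CTR. The median change of the 35 genes was 0.14, with 19 above 0, beside a median of -0.02 over all features. Of the genes, 3 had an unadjusted p under 0.05, Grm5 at 0.39 (95% confidence interval 0.08 to 0.69), Homer1 at 0.23 (0.04 to 0.42) and Gria3 at -0.19, and the adjusted p was 0.654 for the first 2 and 0.673 for Gria3. Over all features 7.34% had such a p. The changes ran from -0.24 for Homer2 (adjusted p = 0.692) to 0.57 for Grm8 (adjusted p = 0.71). The groups did not overlap for 6 genes (Gria3, Grin2b, Grin2d, Grm5, Homer1 and Homer2), beside 10.9% of all features. APP-PS1_UA 1 alone of the treated arrays shared slide 1 with the controls, and within that slide the median was 0.03.

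APP-PS1_UA was also set against WT_CTR, and 0 of 35 genes passed where 0.0482% of all features did. The median change was 0.01. Shank3 was the lowest, at -0.50 (95% confidence interval -0.93 to -0.08, adjusted p = 0.791), and was the 1 gene of the 35 with an unadjusted p under 0.05. This is its probe with the highest signal. Among the 18 genes with more than 1 kept probe, the probes of Shank3 differed most here, with a span of 0.62. Grin2a was the highest of the 35 at 0.41 (adjusted p = 0.799).

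Urolithin A after washout was examined within slide 3, between APP-PS1_UA-WASHOUT and APP-PS1_WASHOUT. The median change was -0.06, beside -0.01 over all features, and 23 of 35 genes were below 0. Grin2d was the highest, at 0.92 (SE 0.24, 95% confidence interval 0.42 to 1.41), with all 5 treated arrays (2.52 to 3.11) above all 3 untreated arrays (1.43 to 2.46). Its adjusted p was 0.211, and it ranged from 0.0249 to 0.653 over the alternatives, with the change between 0.67 and 1.21 in those on the log2 scale. The 2 alternatives under 0.05 were the absence of a filter on dim probes (0.0249) and the authors' standardized scores (0.0333). APP-PS1_UA-WASHOUT 1, the 1 treated array in row 1 beside the 3 untreated arrays, read 3.11. Grin2a was the lowest at -0.38 (95% confidence interval -0.88 to 0.12, adjusted p = 0.78), and Grin2b at -0.33 (adjusted p = 0.612) was the other gene with an unadjusted p under 0.05. The groups did not overlap for 2 genes, beside 5.34% of all features.

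Between WT_WASHOUT and WT_CTR 0 of 35 genes passed, beside 0.017% of all features, with Homer3 at -0.50 (adjusted p = 0.595) and Slc17a6 at 0.85 (adjusted p = 0.629). The transgene effect differed between stages for 2 of 35 genes, Grin2d and Homer1, which is 5.71% beside 14.2% of all features. Among those that did not pass, Grid1 had the highest difference (0.71, adjusted p = 0.27) and Slc17a6 the lowest (-0.95, adjusted p = 0.397). The urolithin A effect differed between stages for 0 of 35, beside 0.00851% of all features, with 4 genes at an unadjusted p under 0.05. Grm5 had the lowest difference, -0.63 (SE 0.20, adjusted p = 0.364), being 0.39 with urolithin A at the end of treatment and -0.25 after washout, and Grin2d the highest, 0.46 (adjusted p = 0.688).

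Both comparisons with WT_WASHOUT depend on how arrays were scaled. Of all features 7036 were higher and 2705 lower in APP-PS1_WASHOUT, which became 4976 and 7874 with median centring, 4451 and 5251 with quantile normalization and 4593 and 6511 in the authors' standardized scores. In APP-PS1_UA-WASHOUT 8317 were higher and 4364 lower, which became 5788 and 13898, 5563 and 8655, and 5967 and 12045. Median centring moved the median of all features from 0.08 to -0.15 in the first and from 0.05 to -0.26 in the second. Among the 35 genes the split moved from 4 higher and 3 lower to 1 and 10 in the first, and from 2 and 7 to 1 and 18 in the second. Quantile normalization gave 2 and 4, and 2 and 8.

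Other genes of glutamatergic synapses were counted from lists drawn up with earlier results of these data known. Of 14 AMPA and kainate receptor auxiliary subunit genes, 2 were higher and 0 lower in APP-PS1_WASHOUT against WT_WASHOUT, where 20.0% of all features were higher and 7.67% lower. Cnih2, a cornichon that slows AMPA receptor gating, was 0.87 (adjusted p = 0.0036) and Cacng4, a receptor-trafficking TARP, 0.63 (adjusted p = 0.047). In APP-PS1_UA-WASHOUT 1 was higher (Cnih2, 0.72) and 2 lower, the kainate receptor partner Neto2 (-0.47) and the TARP Cacng7 (-0.39). Over all features 23.6% were higher and 12.4% lower in that comparison. Of 23 further postsynaptic density genes 0 passed in APP-PS1_WASHOUT, while 2 were higher and 4 lower in APP-PS1_UA-WASHOUT, including the adhesion protein gene Lrrtm4 (-0.82) and the scaffold gene Dlgap4 (0.57). Of 9 glutamate uptake and metabolism genes 0 and 1 passed, the latter being the glutamine transporter gene Slc38a1 (-0.30).

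Of 20 presynaptic vesicle release genes 5 were higher and 0 lower in APP-PS1_WASHOUT, including the fusion regulator Cplx2 (1.43, adjusted p = 2.04e-07), the SNARE Snap25 (0.75) and the neurexin gene Nrxn2 (0.59), and 7 were higher and 0 lower in APP-PS1_UA-WASHOUT. Over all features 20.0% and 23.6% were higher in these comparisons. Of the activity-regulated genes 8 of 17 were lower in APP-PS1_WASHOUT and 12 of 17 in APP-PS1_UA-WASHOUT, led by Egr2 (-1.75 and -2.59) and Fos (-1.42 and -1.94), beside 7.67% and 12.4% of all features. Their mean score was 1.67 ± 0.10 (SD, n = 5) in WT_WASHOUT, with a group mean between 0.64 and 0.89 in the 5 other groups, so WT_WASHOUT stood above all of them. At the end of treatment and between the 2 slide 3 groups 0 genes of these 5 lists passed.

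Cell type markers also differed in the comparisons with WT_WASHOUT. Over all features 20.0% were higher and 7.67% lower in APP-PS1_WASHOUT, and 23.6% and 12.4% in APP-PS1_UA-WASHOUT. In APP-PS1_WASHOUT against WT_WASHOUT 5 of 7 microglial markers were higher, with a mean score of 1.67 to 2.16 beside 1.15 to 1.55 in WT_WASHOUT, and 2 of 7 astrocyte markers were higher (Gfap and Aldoc), with a score of 2.89 to 2.99 beside 2.40 to 2.91. Of 8 GABAergic interneuron markers, the cells in which Grin2d is enriched, 1 was higher (Sst, 0.59) and 2 were lower (Lhx6, -1.11, and Gad1, -0.50), with scores of 2.92 to 3.00 and 2.98 to 3.33. Of 8 pan-neuronal markers 0 passed, with scores of 4.12 to 4.23 and 4.09 to 4.45. Markers of hippocampal subfields gave 1 higher of 10, oligodendrocytes 1 higher of 8, oligodendrocyte precursors 0 of 4 and endothelium 1 lower of 5. Markers of neighbouring regions gave 2 lower of 5 for neocortex, 1 higher of 5 for striatum, 0 of 6 for thalamus and habenula and 0 of 3 for cerebellum, with 0 of 7 for choroid plexus and 0 of 2 for blood. In APP-PS1_UA-WASHOUT against WT_WASHOUT 6 of 7 microglial markers were higher, with a score of 1.71 to 2.12, and 2 of 7 astrocyte markers (2.77 to 3.02). Interneuron markers gave 1 higher and 2 lower of 8 (2.76 to 2.99), pan-neuronal markers 0 of 8 (3.95 to 4.30) and subfield markers 0 of 10. Oligodendrocytes gave 1 higher and 1 lower of 8, their precursors 1 lower of 4, endothelium 1 lower of 5, neocortex 1 lower of 5, striatum 1 higher of 5 and cerebellum 1 higher of 3 (Pcp2, 1.79), while thalamus and habenula, choroid plexus and blood gave 0 of 6, 0 of 7 and 0 of 2. In APP-PS1_CTR against WT_CTR, within slide 1, 0 of 7 microglial and 0 of 7 astrocyte markers passed, beside 0.156% of all features. The microglial score was 1.81 to 1.88 beside 1.35 to 1.53 in WT_CTR, and the astrocyte score 2.91 to 3.01 beside 2.69 to 2.87. Interneuron scores (2.75 to 3.07 and 2.97 to 3.21) and pan-neuronal scores (3.90 to 4.10 and 3.99 to 4.25) overlapped. The choroid plexus score ran from -2.94 to 3.55 over all arrays, with wide ranges inside groups. The part of these markers in the values of the receptor and scaffold genes was not tested.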

How the data were processed

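Hippocampal RNA of 24 mice was measured on 24 Agilent 1-colour arrays. Per the file headers, Feature Extraction 12.0.3.1 produced the deposited intensity of each spot, whose processed signal is background-subtracted and not scaled between arrays. The series matrix deposited by the authors holds a score, which matched each array's log signal standardized to mean 0 and SD 1 within 0.005; its log base is not recoverable, and its column medians ran from -0.17 to -0.06. The 36 genes and all lists were chosen with earlier results of these data known.

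Processed intensities were log2 transformed and the 75th percentile of each array was subtracted. Values that Feature Extraction flagged as outliers, 1125 among kept probes, were dropped. Probes well above background on at least 3 arrays were kept (43988 of 56605), and 15 with under 2 values in a group were removed. The probe with the highest mean signal stood for a gene, and probes without a symbol were tested singly, giving 35259 features. Names came from RefSeq accessions, which matched 32994 probes. limma 3.58.1 in R 4.3.3 (lmFit, contrasts.fit, eBayes) was fitted to all 24 arrays with 6 group means and 9 contrasts, and p-values were adjusted by Benjamini-Hochberg over all features; all adjusted p-values come from it. Called means an adjusted p under 0.05, and intervals are at 95%. The fit was tested on simulated data. Each gene of the set could be named. In every comparison the called genes were named, with the largest change not called in each direction; in other lists up to 3 called genes with the largest absolute change were named, except 1 that is not reported here. List scores are means of log2 values. Alternatives covered background correction, scaling, filters, probe choice, slide, array row, replicate number, array weights and leaving out each array. The normexp alternative used the median signal, because the files used here hold no mean signal. Keeping spots with a flag, and slide with array row as 1 block, were alternatives chosen after seeing the data. The number of arrays limits the precision.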

Additional observations from a re-analysis of the deposited data

Results flagged for a closer look

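The transgene effect differed between the end of treatment and washout for 2 genes, by the test of the difference itself. For Grin2d the difference was 2.28 (adjusted p = 0.000152 by limma) and for Homer1, by its probe with the highest signal, 0.52 (adjusted p = 0.00781). These are 5.71% of the 35 genes, where 14.2% of all features differed. Neither passed with array row as a block (adjusted p = 0.0957 and 0.292). In both, the later stage compares slide 3 with slide 2.

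Single arrays stood apart from the others of their group in 3 of 140 sets of 4 or 5 arrays examined (2.14%), and chance gives about 1 in 20. Grm3 was 0.16 on APP-PS1_UA-WASHOUT 1, with the other 4 arrays between 0.34 and 0.37. WT_WASHOUT 1 was low for Homer2 (0.49, the others 0.81 to 0.90) and high for Homer3 (-1.23, the others -1.90 to -1.73).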

How the results depend on the processing

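The end-of-treatment comparisons held 0 called genes under every alternative. After washout, the 7 genes called between APP-PS1_WASHOUT and WT_WASHOUT became 4 with normexp background and 11 with median centring. The share of all features called moved from 27.6% to 17.7% and 36.4%. With 1 array left out the count was 4 to 7 (4 without APP-PS1_WASHOUT 2 or 3), beside 20.2% to 28.5% of all features. The 9 called between APP-PS1_UA-WASHOUT and WT_WASHOUT became 19 with median centring, where the share of all features called rose from 36% to 55.8%. For urolithin A after washout, 1 gene (Grin2d) passed with no filter on dim probes and 1 in the standardized scores. The shares of all features there were 6.37% and 0.888%. The difference of the transgene effect between stages held 5 genes with median centring, beside 20.0% of all features. With the mean of all kept probes it held 1, beside 14%, and with array row as a block 0, beside 2.15%. Without these changes it held 2 genes, beside 14.2% of all features.

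Direction was reversed for Homer1 with the mean of its probes, at -0.21 and -0.38 against WT_WASHOUT and -0.06 for the difference between stages, and with median centring at -0.06 in APP-PS1_UA-WASHOUT. Gria2 and Dlg3 each reversed to 0.02 in the standardized scores. The probes' disagreement accounts for the Homer1 means; elsewhere the cause was not tested. Grin2d kept its calls against WT_WASHOUT in all 12 alternatives and without any 1 array (1.59 to 2.13 in APP-PS1_WASHOUT and 2.49 to 2.94 in APP-PS1_UA-WASHOUT on the log2 scale, and 0.43 and 0.68 in units of the standardized scores). These alternatives held slide only as a random block, where 33.8% and 44.3% of all features were called. A fixed slide block could not be fitted to these comparisons, because slide 3 shared no group with slides 1 and 2.

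Same-numbered samples of different groups showed little shared deviation at the median (52 pairs, correlations -0.271 to 0.318, median 0.011). Of the pairs 12 were over 0.1, and 8 of 24 arrays were closest to their own number. These values gave no clear pairing by number, and with 3 to 5 arrays per group they cannot exclude one. With a replicate block the counts were 7, 11 and 2 for the 2 comparisons with WT_WASHOUT and the difference of the transgene effect, and 0 elsewhere. Beside the counts of 7, 11 and 2, 24.9%, 37.0% and 12.9% of all features were called.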
